A study of Elopichthys bambusa with 12 samples.

Results

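Among 42353 assembled transcript features measured in liver of the yellowcheek carp, Elopichthys bambusa, a fish-eating relative of the carps, 79 were higher in fasted than in fed fish at 8 days and lower in fasted than in fed fish at 28 days. They were chosen by their measured levels. Counts were scaled to a common library total (CPM, counts per 1000000 counts of a library) and averaged over the 3 libraries of each group, and the highest group mean had to reach 10 CPM, which 7666 features did. The fasted 8-day mean had to be at least 2 times the fed 8-day mean with no overlap between the libraries, and the fasted 28-day mean at most 0.5 times the fed 28-day mean, again with no overlap. Both fasting comparisons and all 12 libraries therefore entered the choice, and the fasted against fed values of these features are given as a description.

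The 4 groups, of 3 liver libraries each, were fish deprived of food for 28 days, fish kept on a commercial diet over the same 28 days, fish deprived of food for 8 days, and fish kept on that diet over those 8 days. The labels give no strain, age or sex, and do not say whether a library came from a single fish or a pool, so the spread between libraries may be in part technical. The libraries held 16785827 to 19901335 estimated counts. Features carry assembly identifiers without gene names, so the roles of the 79 members and the markers of liver cell types could not be looked up, and the labelled tissue was not checked. In bulk liver, fewer cells of a type and less RNA per cell cannot be told apart. Beside 4 identifiers, members are told apart here by their length in nucleotides.

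In fish as in mammals the liver stores glycogen and lipid from meals and releases glucose and lipoproteins when food is lacking. Hepatocytes change the transcription of enzymes of glucose, lipid, amino acid and bile acid metabolism with feeding state, and many of these responses depend on how long food has been absent. A fasted over fed ratio depends on the fed animals as much as on the fasted ones.

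All 79 members had their highest mean in the fed 28-day group and their lowest in the fed 8-day group, with both fasted groups between. The rule allows 6 orders of the group means, among them 3 that place the fasted 8-day group on top, and only 2 of the 6 occurred. Where the fasted means of both days are within 2-fold of each other, as in 76 members, the rule itself leaves only these 2 orders. The fasted 28-day mean was below the fasted 8-day mean in 48 members and above it in 31. The median member had 12 CPM in fasted 28-day fish, 38.8 CPM in fed 28-day fish, 14.4 CPM in fasted 8-day fish and 2.73 CPM in fed 8-day fish. The fasted medians of both days thus lay near each other, with the fed medians on either side. Each fed group also stood apart over all features tested, so a separation of the fed groups was not particular to the members. Fed 8-day libraries were at 186 to 195 on the first principal component, and the other libraries at -87.9 to -37.9. On the second, fed 28-day libraries were at -157 to -112, and the other libraries at 1.38 to 98.2. Neither component placed the fasted libraries as a set between the fed groups.

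**Figure D1:**
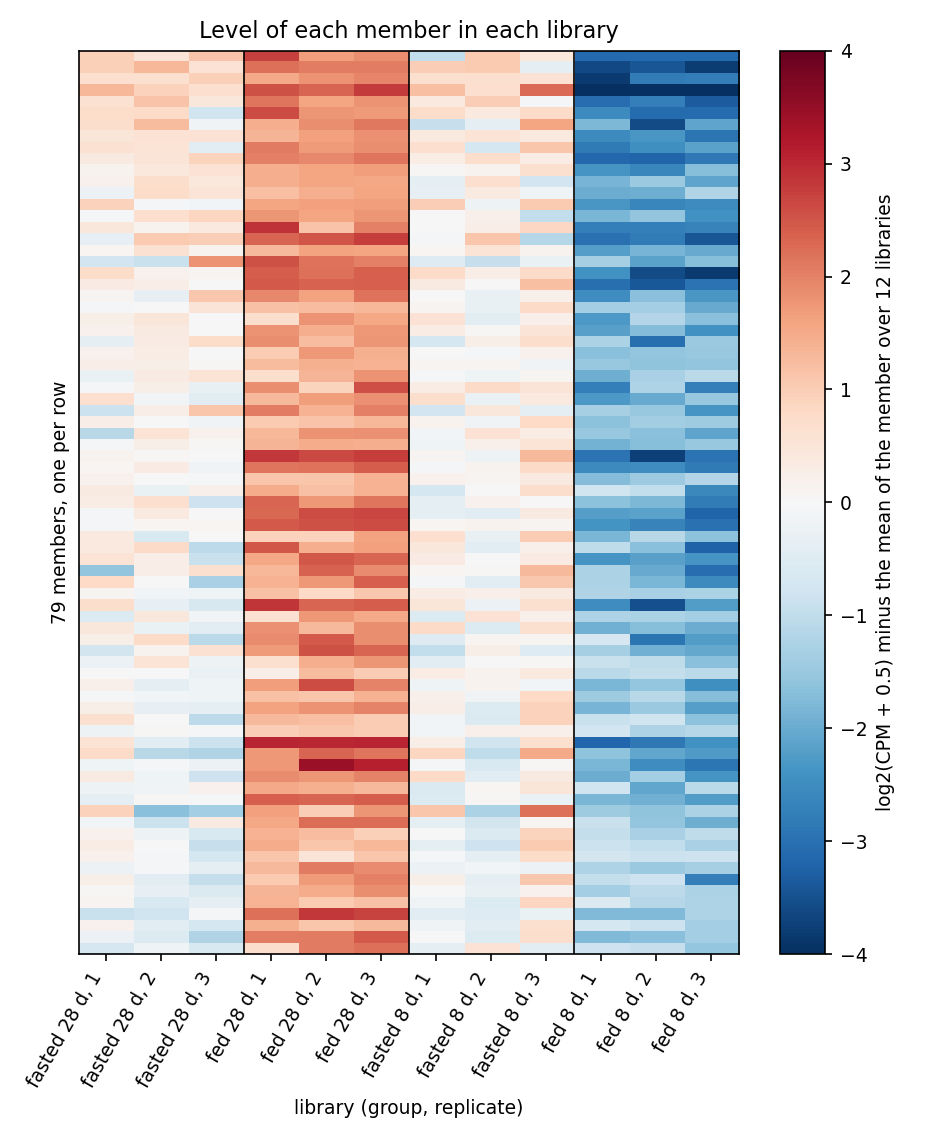
Level of each of the 79 members (rows) in each of the 12 libraries (columns, by group and replicate), as log2(CPM + 0.5) minus the mean of that member over the 12 libraries. The fed 28-day columns are mostly the highest and the fed 8-day columns mostly the lowest, and in 66 of the 79 rows all 6 fasted columns lie between them.

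The most abundant member was TRINITY_DN13218_c0_g1_i5_1, of 1430 nucleotides. Its CPM was 376, 285 and 239 in the fasted 28-day libraries, against 887, 764 and 1044 in the fed 28-day libraries. At 8 days it was 343, 237 and 718 in the fasted libraries, against 5.30, 3.61 and 4.85 in the fed libraries. The transcript was thus low in the fed 8-day fish alone, and replicate 3 of the fasted 8-day group came close to the fed 28-day range without entering it. The mean of fed fish at 28 days was 196 times that at 8 days, whereas the mean of fasted fish at 28 days was 0.694 times that at 8 days. The fasted ratio rested on replicate 3 of the 8-day group, without which the means were 300.3 CPM at 28 days and 290.4 CPM at 8 days, a ratio of 1.03. This member alone made up 13.4% ± 1.7 of the summed CPM of the 79 in fasted 28-day fish, 12.8% ± 0.956 in fed 28-day fish, 16% ± 5.27 in fasted 8-day fish and 0.897% ± 0.207 in fed 8-day fish (SD, n = 3 each).

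TRINITY_DN14008_c0_g1_i1_2, of 3775 nucleotides and second in abundance, had a smaller contrast. It had 208, 161 and 135 CPM in the fasted 28-day libraries, against 515, 566 and 729 CPM in the fed 28-day libraries. At 8 days it had 199, 163 and 229 CPM in fasted and 78.7, 97.1 and 84.3 CPM in fed libraries. The 6 fasted values overlapped between days and touched neither fed group. Its fed mean at 28 days was 6.96 times that at 8 days, and its fasted mean at 28 days 0.852 times that at 8 days.

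TRINITY_DN13943_c0_g1_i7_1 (2069 nucleotides) and TRINITY_DN14761_c5_g1_i5_1 (2505 nucleotides) are shown because the smaller of their edgeR log2 fold changes of the fasting comparisons was the largest in size among the other members with counts in every group. The first had 25.1, 12.5 and 9.10 CPM in fasted 28-day libraries, against 145, 143 and 145 CPM in fed 28-day libraries. Its 8-day levels were 20.6, 9.62 and 26.9 CPM in fasted libraries, against 1.44, 1.92 and 2.77 CPM in fed libraries. Its folds were nearly equal on the 2 days, 9.28 for fed over fasted at 28 days and 9.31 for fasted over fed at 8 days, which put the fasted level close to midway between the fed levels on a log scale. The second had 18.6, 17.3 and 16.9 CPM in fasted 28-day libraries, against 121, 106 and 117 CPM in fed 28-day libraries. The 8-day libraries gave 18.1, 14.4 and 41.9 CPM in fasted fish, against 1.73, 0.784 and 1.74 CPM in fed fish. Here, too, replicate 3 was the highest of the fasted 8-day libraries, and without it the fasted mean at 28 days was 1.08 times that at 8 days, against 0.709 times with it.

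**Figure D2:**
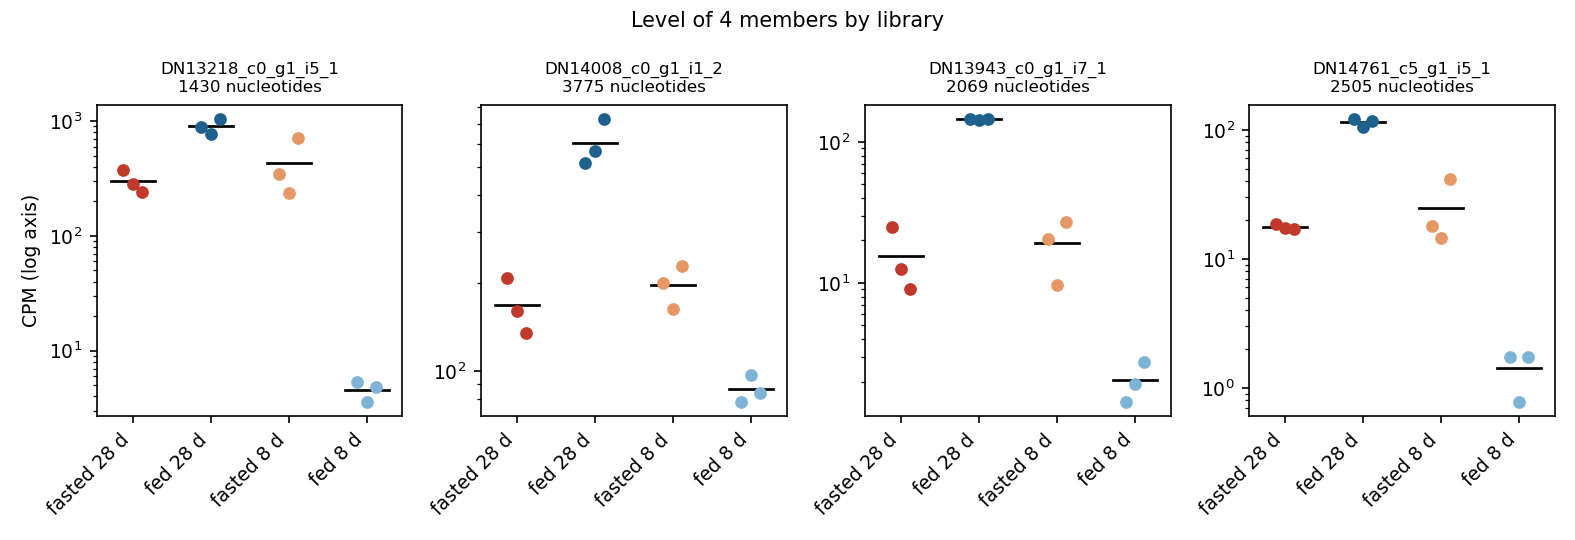
CPM of 4 members in each library (points, one panel per member, log axis) with the mean of each group (line). In every panel the fed 28-day points are highest and the fed 8-day points lowest, and the fasted 28-day and fasted 8-day points overlap.

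A member of 1116 nucleotides was the most abundant of the 31 with a higher mean in fasted 28-day than in fasted 8-day fish. It had 94.6, 106 and 136 CPM in fasted 28-day libraries, against 294, 281 and 327 CPM in fed 28-day libraries. At 8 days it had 90.0, 118 and 90.0 CPM in fasted libraries, against 7.93, 7.56 and 9.68 CPM in fed libraries. Replicates were tight in all 4 groups, and the fasted means, 112 ± 21.2 CPM at 28 days and 99.5 ± 16.4 CPM at 8 days (SD, n = 3 each), differed by less than either spread.

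Read against length, the members covered a wide range of abundance. Their mean FPKM, fragments per kilobase relative to library size as deposited by the authors, ran in fasted 28-day fish between 0.651 and 206 with a median of 5.81, and in fed 28-day fish between 1.85 and 622 with a median of 18.3. In fasted 8-day fish the median was 6.12 FPKM and in fed 8-day fish 1.34 FPKM. The 1430-nucleotide member was the highest per length in fed 28-day fish, at 622 ± 87.6 FPKM (SD, n = 3). By CPM, 19 members had a mean over 100 in fed 28-day fish.

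The 79 members together took 0.222% ± 0.0235 of all counts in fasted 28-day libraries and 0.699% ± 0.0649 in fed 28-day libraries (SD, n = 3 each). They took 0.257% ± 0.0647 in fasted 8-day libraries and 0.0515% ± 0.00326 in fed 8-day libraries. The fasted 8-day libraries held 0.241%, 0.201% and 0.328%. The fasted share at 28 days minus that at 8 days was -0.0347 percentage points, with p = 0.6 in an exact permutation test (two-sided). With 3 against 3 libraries this test cannot go below 0.1, and the rule used the same libraries, so it does not show whether the shares differed. Without replicate 3 of the fasted 8-day group the difference was 0.000819 percentage points.

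The fold had a wider range between members at 8 days than at 28 days. Fasted over fed at 8 days was 2.01 to 94.4-fold, with a median of 4.29, over the 76 members whose fed 8-day mean lay above that of 3 counts per library (0.165 CPM). Fed over fasted at 28 days was 2.02 to 11.9-fold over all 79, with a median of 2.94. The fold was 4 or more in 46 members at 8 days, in 23 at 28 days and in 15 on both. In 61 members the 8-day fold was the larger of the pair, and in 18 the 28-day fold. These counts are for library-size CPM. On the TMM-scaled edgeR fit the 8-day change was the larger in 51 members and the 28-day change in 28, and the fold was 4 or more in 49 at 8 days, in 36 at 28 days and in 27 on both.

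At the thresholds the choice was narrow. The member closest to the limit at 8 days (3722 nucleotides) had 35.4 ± 15.4 CPM in fasted and 17.6 ± 0.691 CPM in fed fish, a fold of 2.01. The closest feature that missed it (1948 nucleotides) had 21.3 ± 2.44 CPM in fasted and 11.1 ± 1.53 CPM in fed fish, a fold of 1.92 (SD, n = 3 each). At 28 days the last member inside (2840 nucleotides) had 30.5 ± 4.04 CPM in fasted and 61.5 ± 9.31 CPM in fed fish, and the first feature outside (1037 nucleotides) 9.39 ± 6.03 CPM in fasted and 18.8 ± 3.22 CPM in fed fish. A further 35 features met every condition but the 8-day fold, and 105 every condition but the 28-day fold.

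In edgeR's quasi-likelihood test over all 32212 features with enough counts, with TMM scaling and Benjamini-Hochberg adjustment, every member was tested. At an adjusted p under 0.05, 67 of the 79 were lower in fasted than in fed fish at 28 days, where 5.79% of all features tested were, and 72 were higher at 8 days, where 13.3% were. The difference between the fasting effects, 28 minus 8 days, was below 0 in 79 members, where 8.13% of all features were. On both days 63 passed, at 8 days alone 9, at 28 days alone 4, and on neither 3. The like shares of all features were not counted. In the members the median log2 fold change was -1.88 at 28 days and 2.21 at 8 days, beside medians of 0.10 and 0.16 over all features tested. Since these contrasts chose the members, the counts say how the rule and the test compare, not how strong the response was. The 3 fasted libraries that lay apart on the third principal component were also set aside, a choice made after seeing the data. They were fasted 28-day replicates 2 and 3 and fasted 8-day replicate 2. That leaves 1 fasted 28-day library, and the median log2 fold change at 28 days was then -1.72. Calls from that fit are not given, since 1 library has no spread of its own.

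The comparison of 28 with 8 days within each feeding state asked on which side the members differed between groups. Day cannot be told apart here from anything else that differed between the groups sampled at 8 and at 28 days. The rule requires only that the 28 over 8 day ratio in fed fish be at least 4 times that in fasted fish, and does not fix how this is divided. In fed fish all 79 members were higher at 28 than at 8 days by edgeR's test, where 14.3% of all features were. Over the 76 members above the floor, the fed 28-day mean was 3.43 to 196 times the fed 8-day mean, with a median of 14.5. In fasted fish no member passed the test between days, where 0% of all features did. DESeq2 called 0 members as well, and its share of all features is not given here. The unadjusted p of edgeR's test was under 0.05 in 2 members, a count not set against all features. The fasted 28-day mean was 0.362 to 2.64 times the fasted 8-day mean, with a median of 0.905. It was within 1.5-fold in 72 members and within 2-fold in 76, and the like shares of all features were not counted. Since 0% of all features tested passed between the fasted days, this closeness is not shown to be particular to the members. Both fed groups entered the rule, one as the low and one as the high side, so the count in fed fish describes the members and does not test them. A missed threshold in fasted fish does not show that the levels were alike. The median log2 fold change of 28 over 8 days was -0.26 in fasted and 4.15 in fed fish, beside 0.01 in each over all features tested.

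**Figure D3:**
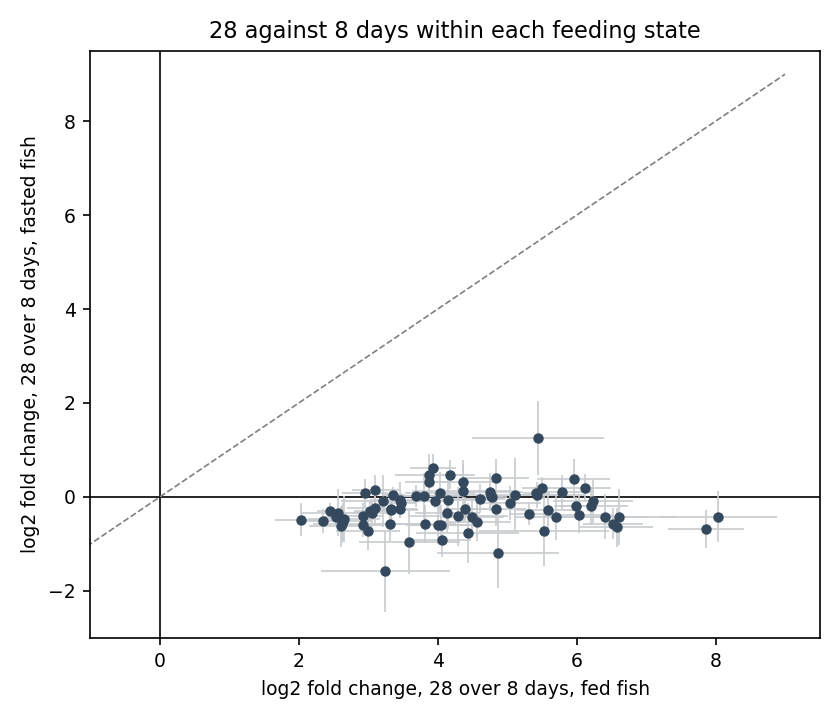
Log2 fold change of 28 over 8 days in fed fish (horizontal) and in fasted fish (vertical) for the 78 members with a count in fed 8-day fish, with approximate standard errors. The points lie between 2.03 and 8.04 on the horizontal axis and between -1.59 and 1.26 on the vertical one. On the vertical axis more of them lie below 0 than above it. The points are far from the dashed line on which both changes would be equal.

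The log2 fold change of 28 over 8 days in fasted fish was -0.68 ± 0.40 (SE) in TRINITY_DN13218_c0_g1_i5_1 and -0.35 ± 0.25 in TRINITY_DN14008_c0_g1_i1_2. It was -0.42 ± 0.48 in TRINITY_DN13943_c0_g1_i7_1 and -0.65 ± 0.41 in TRINITY_DN14761_c5_g1_i5_1. In fed fish the same quantity was 7.87 ± 0.55, 3.05 ± 0.27, 6.41 ± 0.61 and 6.57 ± 0.53 in these 4 members, in that order. In fasted fish the change was 0.881 to 1.67 times its SE and did not pass the test (edgeR adjusted p = 1 for each).

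The members of 3048, 1274, 2541, 325 and 7992 nucleotides described from here on were singled out after their values were seen. A member of 3048 nucleotides had the highest fasted ratio of 28 over 8 days. It had 1.13, 0.977 and 9.02 CPM in fasted 28-day libraries, against 15.7, 11.9 and 10.7 CPM in fed 28-day libraries. Its 8-day levels were 1.44, 0.967 and 1.82 CPM in fasted and 0.595, 0.119 and 0.345 CPM in fed libraries. Its fasted 28-day mean thus rested on replicate 3, and the other fasted libraries of both days were between 0.967 and 1.82 CPM. A member of 1274 nucleotides had the lowest ratio, and its fasted libraries were scattered on both days. It had 57.3, 9.02 and 11.4 CPM in fasted 28-day libraries, against 95.1, 59.9 and 102 CPM in fed 28-day libraries. The 8-day libraries gave 64.5, 12.2 and 138 CPM in fasted libraries, against 10.8, 9.39 and 12.1 CPM in fed libraries. The 3 low fasted values were in fasted 28-day replicates 2 and 3 and fasted 8-day replicate 2, the libraries that lay apart from the other fasted ones on the third principal component of all features. Their part in the result was not tested.

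A clean ordering of the fasted days was rare in the members, as it was over all features tested. In 3 members every fasted 28-day library was below every fasted 8-day library, where 2.33% of all features were, and in 0 members every fasted 28-day library was above, where 4.31% of all features were. The most abundant of the 3, a member of 2541 nucleotides, had 73.9, 62.9 and 60.7 CPM in fasted 28-day libraries, against 152, 119 and 143 CPM in fed 28-day libraries. At 8 days it had 82.6, 77.3 and 87.7 CPM in fasted libraries, against 29.4, 27.5 and 28.2 CPM in fed libraries. Its fasted log2 fold change of 28 over 8 days was -0.44 ± 0.18 (SE), with an edgeR adjusted p of 1.

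Each fasted group was also set against the fed group of the other day, comparisons that the rule does not name and in which feeding and day differ at once. Fasted 28-day fish had higher levels than fed 8-day fish in 66 members by edgeR's test, where 14.4% of all features were higher, with a median log2 fold change of 2.11. Fasted 8-day fish had lower levels than fed 28-day fish in 56 members, where 4.44% of all features were lower, with a median of -1.68. Both held in 52 members, only the first in 14, only the second in 4, and neither in 9. The shares of all features in these combinations were not counted. All 6 fasted libraries were above the fed 8-day libraries in 70 members (17.1% of all features tested) and below the fed 28-day libraries in 73 (6.66%). In 66 members all 6 lay between the fed groups without overlap, as 0.953% of all features tested did. These comparisons share the libraries that chose the members. Where the fasted means are within 2-fold of each other, as in 76 members, the rule also fixes the direction of both for the CPM means. The counts thus describe the members and do not test them.

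On a log scale that runs between 0 at the fed 8-day mean and 1 at the fed 28-day mean, the fasted 28-day mean stood at a median of 0.555 and the fasted 8-day mean at a median of 0.583 over the 76 members above the floor. The range was 0.223 to 0.810 for fasted 28-day and 0.348 to 0.914 for fasted 8-day fish. TRINITY_DN13218_c0_g1_i5_1 stood high, at 0.792 in fasted 28-day and 0.862 in fasted 8-day fish, and TRINITY_DN14008_c0_g1_i1_2 low, at 0.341 in fasted 28-day and 0.423 in fasted 8-day fish.

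**Figure D4:**
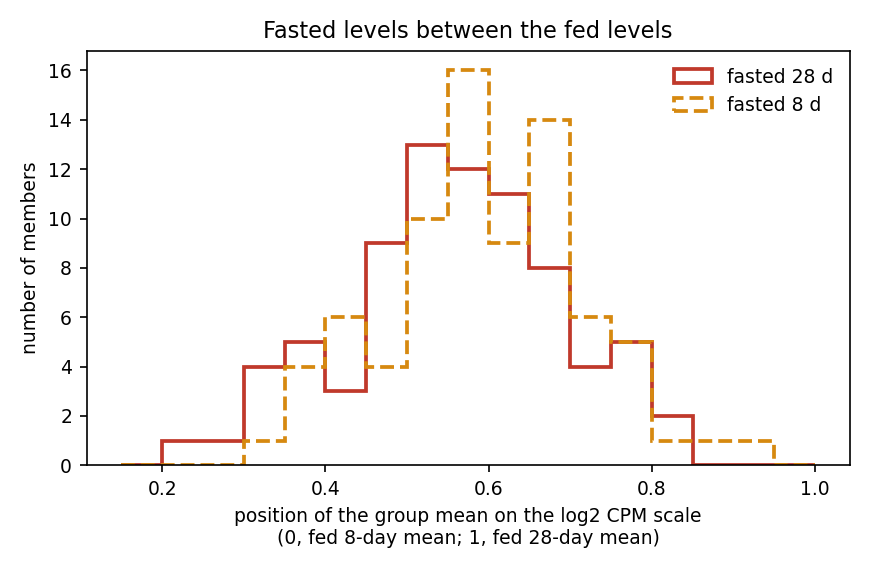
Number of members by the position of the fasted 28-day mean (solid line) and the fasted 8-day mean (dashed line) on a log2 CPM scale with the fed 8-day mean at 0 and the fed 28-day mean at 1, for the 78 members with a count in fed 8-day fish. Both distributions peak near the middle of the scale and overlap over most of their range.

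The members are a small part of the features that were higher in fed fish at 28 than at 8 days. Among features of 10 CPM or more, 597 had a fed 28-day mean at least 4 times the fed 8-day mean with no overlap between those libraries, and 78 of the 79 members were among them (13.1%). By the means alone, with overlap allowed in the fasting comparisons, 107 of the 597 met both the 8-day and the 28-day fold of 2. On the same basis, 425 of the 597 (71.2%) met the 8-day condition only. In these the fasted 8-day mean was at least 2 times the fed 8-day mean. Their fasted 28-day mean stayed above 0.5 times the fed 28-day mean. The reverse, in which only the 28-day condition was met, was seen in 63 (10.6%).

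The shortest member, of 325 nucleotides, was at 0 counts in all 3 libraries of fed 8-day fish. It had 7.83, 5.71 and 9.10 CPM in fasted 28-day libraries, against 28.1, 13.4 and 15.1 CPM in fed 28-day libraries, and 1.71, 8.37 and 5.34 CPM in fasted 8-day libraries. Against a floor of 3 counts per library it was at least 31.2-fold higher in fasted than in fed fish at 8 days, a bound for counting error only. The longest member, of 7992 nucleotides, had the most uneven counts over the 12 libraries, with 39.0% of its summed CPM in 1 library. It had 5.21, 5.71 and 4.98 CPM in fasted 28-day libraries, against 20.9, 69.7 and 54.8 CPM in fed 28-day libraries. Its 8-day levels were 5.51, 3.66 and 6.16 CPM in fasted libraries, against 1.28, 0.637 and 0.368 CPM in fed libraries, so the fed 28-day values spread far more than the fasted ones. In no member did 1 library hold over 60% of the summed CPM.

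Members were longer than other features and carried certain identifiers more often. Their median length was 2299 nucleotides, against 1622.5 for the 7666 features of 10 CPM or more and 598 for all. Of the members, 63.3% were over 2000 nucleotides, against 37.4% of the features of 10 CPM or more. Each identifier ends in a number between 1 and 4 whose meaning no label or header states. The number was 1 in 41 members, 2 in 21, 3 in 5 and 4 in 12. Number 1 thus made up 51.9% of the members, against 20.9% of the features of 10 CPM or more, and number 3 made up 6.33%, against 33.0%.

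**Figure D5:**
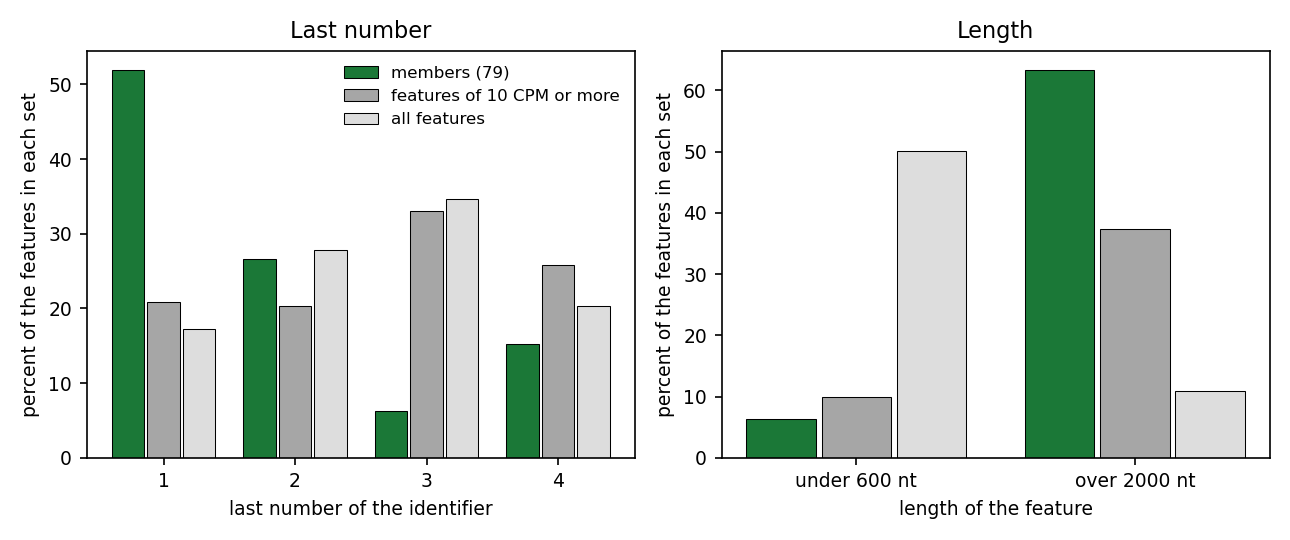
Percent of the 79 members, of the features of 10 CPM or more and of all features (bars) by the last number of the identifier (left) and by length in nucleotides, nt (right). Members ended in 1 more often and in 3 less often than features of 10 CPM or more, and 63.3% of them were over 2000 nucleotides.

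Features held mostly by 1 library were found for each last number. Among features with 30 or more counts in all, 39 that ended in 1 had a single library holding more than 60% of the CPM. Of these, 21 were concentrated in fed 28-day replicate 3 and 11 in fasted 8-day replicate 3. There were 35 such features for number 2, of which 0 were in either of those libraries, 85 for number 3 and 163 for number 4. Number 2 had 23 of them in fasted 28-day replicate 2 and 5 in fed 28-day replicate 2. Number 3 had 47 in fed 8-day replicate 2 and 0 in each fed 28-day library. Number 4 had 73 in fed 8-day replicate 3, 67 in fed 8-day replicate 1 and 19 in fed 28-day replicate 1. Of the 79 members, 35 peaked in fed 28-day replicate 3 and 48 had their fasted 8-day maximum in replicate 3. The counts were 19 and 25 of the 41 members ending in 1, and 11 and 12 of the 21 ending in 2. They were 4 and 2 of the 5 ending in 3, and 1 and 9 of the 12 ending in 4. How often features outside the members peaked in these libraries was not counted. The median fold was 2.99, 3.21, 2.55 and 2.81 for fed over fasted at 28 days in members ending in 1, 2, 3 and 4, and 4.75, 4.31, 3.42 and 5.64 for fasted over fed at 8 days. Without fed 28-day replicate 3 the rule gave 73 features, 71 of them among the 79, and without fasted 8-day replicate 3 it gave 76, 73 of them among the 79. Whether the assembly of the features shaped the choice was not tested.

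Replicate spread was wider in the members than in the features of 10 CPM or more in all 4 groups. The median coefficient of variation was 27.3% in fasted 28-day, 16.8% in fed 28-day, 34.8% in fasted 8-day and 30.7% in fed 8-day libraries. Over the features of 10 CPM or more it was 20.8%, 15.4%, 23.4% and 11.6% in the same groups. The sets were not matched for level, since the minimum of 10 CPM applies to the highest group mean only. In fed 8-day fish the median member had 2.73 CPM, and 16 members had a mean under 1 CPM. Whether level accounts for the wider spread was not tested. The 79 members came from 79 loci, a locus being the identifier up to the isoform number together with the last number. This was not particular to them, since the 42353 features of the file came from 42353 loci. The file thus held 0 other features of the members' loci, and the levels of sister isoforms could not be compared.

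The number of members depended on how libraries were scaled. With CPM divided by TMM factors, which were 0.83 to 1.22 and lowest in the fed 28-day libraries, 161 features met the same conditions, 75 of them among the 79. With the directions turned round, lower in fasted fish at 8 days and higher at 28 days, 116 features met the mirrored conditions on library-size CPM.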

How the data were processed

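Liver RNA sequencing of 12 libraries in 4 groups of 3 was used. RNA that passed an integrity threshold went into stranded mRNA libraries read as pairs on 1 of 2 instruments, which are not given per library, per the labels' protocols. Trimmomatic and Bowtie2 are named, without versions, per the submitters' processing notes. No label or header names an assembler, a counting program or an annotation. The authors deposited a table of estimated counts, which are not whole, and a table of FPKM values, each with 42353 features and 12 libraries (16785827 to 19901335 counts). Columns were matched to samples by the group codes of the series' design and the replicate number.

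Members follow the rule on CPM computed here from the deposited estimated counts and column totals. Lengths are counts divided by FPKM, and 100% were whole within 0.02 nucleotides. Estimated counts were rounded, filtered with filterByExpr (32212 features kept, 10141 left out) and fitted together with edgeR 4.0.16 in R 4.3.3 (TMM, robust quasi-likelihood F test, no replicate block, Benjamini-Hochberg adjustment over all features tested, threshold 0.05). Standard errors are approximate (fold change over the root of its F value). DESeq2 1.42.0, limma 3.58.1 on log2(FPKM + 1) and log2(FPKM + 0.1), other scalings, filters and thresholds, and leaving out each library were alternatives. The test was also run on counts simulated with the spread of its own fit. That run does not check the model against these data, and its outcome is not given here. Reads of near-identical features may have been shared out between them, which makes their values uncertain.

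The 4 identifiers printed are the 2 members with the highest mean CPM and, among members with counts in every group, the 2 others whose smaller absolute log2 fold change of the fasting comparisons was largest. Members, lists and tests were chosen with earlier results of these data known. The lists of cell type markers were not run, because the files do not pair identifiers with names.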

Additional observations from a re-analysis of the deposited data

Results flagged for a closer look

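The fasting effect (log2, fasted over fed) was not the same at 28 as at 8 days in 79 of the 79 members by the interaction term of the edgeR fit (adjusted p under 0.05), where 8.13% of all features tested were lower at 28 days. The rule that chose the members fixes this difference and its sign. For the named members the difference, 28 minus 8 days, was -8.54 in TRINITY_DN13218_c0_g1_i5_1, -3.40 in TRINITY_DN14008_c0_g1_i1_2, -6.83 in TRINITY_DN13943_c0_g1_i7_1 and -7.22 in TRINITY_DN14761_c5_g1_i5_1.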

How the results depend on the processing

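The number of members was 183 with a fold of 1.5 and 15 with a fold of 4, 181 with a minimum of 1 CPM and 19 with one of 100 CPM. It was 161, 162 and 169 with TMM, RLE and upper-quartile scaled CPM, of which 75, 73 and 76 were among the 79. It was 119, with 69 among the 79, without the 3 fasted libraries set apart on the third component, and 116 with mirrored directions, both chosen after the data were seen. Without these 3 libraries, 1 fasted 28-day library is left, and the no-overlap condition is easier to meet. FPKM gave 66 and allowing overlap gave 111. Summing per locus changes nothing by construction, since each locus holds 1 feature. With 1 library left out at a time there were 73 to 100 members, and the no-overlap condition is again easier to meet. For the fixed 79, leaving out a library gave 59 to 73 called higher at 8 days, 47 to 69 lower at 28 days, 78 to 79 higher in fed fish at 28 than at 8 days and 0 in fasted fish. It gave 75 to 79 with a different fasting effect, 54 to 68 for fasted 28-day over fed 8-day fish and 43 to 56 for fasted 8-day over fed 28-day fish. For the counts called under other settings, the shares of all features are not given here. At an adjusted p under 0.01, 43 of the 79 were lower at 28 days and 36 in fasted 8-day against fed 28-day fish. Setting the 3 fasted libraries aside left 31 lower at 28 days, with 1 fasted 28-day library assumed to vary like the other groups and a median log2 fold change of -1.72 against -1.88. The share of counts, fasted 28 minus 8 days, ran from -0.0625 to 0.000819 percentage points and turned positive without fasted 8-day replicate 3. TRINITY_DN14761_c5_g1_i5_1 turned likewise in fasted fish (log2 fold change -0.992 to 0.0435 over the libraries left out). TRINITY_DN13218_c0_g1_i5_1 at 28 days lost its call at the threshold of 0.01, and without fasted 28-day replicate 2 or 3 or fed 28-day replicate 3. Without these its edgeR adjusted p was 0.073, 0.0735 and 0.0508, and its log2 fold change -1.79, -1.76 and -1.88 against -1.90. With the 3 fasted libraries set aside its log2 fold change was -1.44, on 1 fasted 28-day library. The causes were not tested. With the replicate block, 67 members were higher at 8 days, 64 lower at 28 days, 79 higher in fed fish and 0 different in fasted fish. Deviations of same-numbered libraries of different groups correlated at -0.16 to 0.14, and those of unlike-numbered ones at -0.34 to 0.23. With 3 libraries per group these values cannot decide whether the replicate numbers pair the libraries. With library size alone the all-feature median of the fasting effect at 28 days was 0.45 (log2), and that of the members was -1.56.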
